A study of Mus musculus with 6 samples.

Results

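The endoplasmic reticulum (ER) stress, folding and secretion genes are 45 genes chosen by name for their roles in making secreted and membrane proteins. The choice was made with earlier results of these data known, so shares among them are given as description. All 45 were found by symbol among the 20591 genes of the table. They were divided by role into 8 branches, namely stress sensors, chaperones, disulfide isomerases, translocon, signal peptidase, oligosaccharyltransferase, ER-associated degradation and the ATF4 branch. Their mRNA was read in 6 bulk RNA-seq libraries of colonic mouse B cells obtained by sorting, 3 after lenvatinib and 3 after DMSO, the vehicle. Lenvatinib blocks several receptor tyrosine kinases, among them the VEGF and FGF receptors. The labels give cell type and treatment for each library but no strain, age, dose, time or gate, and the series' title concerns colitis without naming a model. Libraries are labelled as biological replicates, but whether they stand for different animals is not stated. The p-values therefore reflect variation among these 6 libraries, part of which may be technical.

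Proteins bound for the cell surface or for secretion enter the ER through a channel called the translocon, lose their signal peptide, receive sugar chains and disulfide bonds, and fold with the help of chaperones. When unfolded protein accumulates, 3 sensors start the unfolded protein response: IRE1 splices the mRNA of the transcription factor XBP1, ATF6 is cut to release a transcription factor, and PERK slows translation and favours synthesis of ATF4. B cells are known to enlarge this machinery as they become antibody-secreting plasma cells, through XBP1.

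A known control element of ER chaperone genes, the ER stress response element (ERSE, letters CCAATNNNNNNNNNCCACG), was searched on both strands of RefSeq promoter windows of build GRCm38.p6. Each window runs from 250 bases before to 50 bases after a start site. Windows were found by symbol for 36 of the 45 genes. Of these 36, 8 held an ERSE (22.2 percent), while 0.119 percent of all 32851 windows did. The first share counts genes, which had 41 windows among them, and the second counts windows, so they are not like for like, here and for the motifs in the next paragraph. Since the element is known from ER chaperone genes, a high share in a list that holds such genes is no test. The 8 genes are shown because they include the most abundant chaperones described next. Capitals mark the element, read in its own direction, with 10 bases on either side.
Hspa5 (chr2:34772015-34772053, + strand gene): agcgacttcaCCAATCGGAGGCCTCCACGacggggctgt
Hsp90b1 (chr10:86705628-86705666, - strand gene): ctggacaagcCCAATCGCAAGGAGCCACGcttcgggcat
Hsp90b1 (chr10:86705523-86705561, - strand gene): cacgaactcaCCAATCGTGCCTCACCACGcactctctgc
Calr (chr8:84847065-84847103, - strand gene): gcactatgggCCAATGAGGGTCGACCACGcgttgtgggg
Canx (chr11:50325790-50325828, - strand gene): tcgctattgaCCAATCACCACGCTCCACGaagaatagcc
Dnajc3 (chr14:118937817-118937855, + strand gene): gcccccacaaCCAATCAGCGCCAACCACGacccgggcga
Creld2 (chr15:88819510-88819548, + strand gene): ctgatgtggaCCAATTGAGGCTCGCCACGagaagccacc
Pdia6 (chr12:17266481-17266519, + strand gene): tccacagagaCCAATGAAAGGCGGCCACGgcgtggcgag
Syvn1 (chr19:6046522-6046560, + strand gene): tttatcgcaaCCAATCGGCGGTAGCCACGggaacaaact
Hsp90b1 held the element at both of its listed positions, once in each direction. A match is a stretch of letters and not a measured binding site.

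Another pair of motifs was searched in the same windows. The core of the unfolded protein response element (UPRE, TGACGTG), read by XBP1 and ATF6, was found in 3 of the 36 genes against 2.01 percent of all windows. The ATF4 element (TGATGNAA) was also found in 3 of 36, against 3.97 percent of all windows. No match of 1 motif overlapped a match of another in these genes. The UPRE core and the ATF4 element of Txndc5 lie in windows of different start sites. The Txndc5 and Txndc11 matches are shown because both genes fell with lenvatinib, and those of Trib3 and Herpud1 because Trib3 is a target of ATF4.
Txndc5, UPRE core (chr13:38528036-38528062, - strand gene): gcctcgccgcTGACGTGgcgctagccg
Txndc11, UPRE core (chr16:11134618-11134644, - strand gene): gaagtgtggcTGACGTGgagagtccgg
Txndc11, UPRE core (chr16:11134567-11134593, - strand gene): ggtccgggagTGACGTGcggggccggg
Hspa5, UPRE core (chr2:34771923-34771949, + strand gene): ggcgtagcaaTGACGTGagttgcggag
Trib3, ATF4 element (chr2:152344029-152344056, - strand gene): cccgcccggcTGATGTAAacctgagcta
Herpud1, ATF4 element (chr8:94386307-94386334, + strand gene): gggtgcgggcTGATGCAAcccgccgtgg
Txndc5, ATF4 element (chr13:38528912-38528939, - strand gene): tcagggggtgTGATGAAAccacttccca

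Of the 45 genes, 10 rose and 4 fell with lenvatinib at an adjusted p of 0.05 in limma, a linear model test with moderated variances fitted across all genes, and 31 did not pass. Among all 9937 tested genes 18.7 percent passed, 10.4 percent higher and 8.21 percent lower, while among the 45 the shares were 31.1, 22.2 and 8.89 percent. The share lower was therefore near that of all genes. All 45 were tested, and each had a scaled FPKM (fragments normalised to gene length and library total, then scaled per library) of at least 1 in 6 of 6 libraries. The 3 lenvatinib libraries lay wholly above the 3 DMSO libraries for 15 of the 45 genes and wholly below for 7, where the shares among all tested genes were 18.9 and 18.2 percent, or 37.1 percent in either direction. The split of calls moved with the scaling, to 12 higher and 3 lower with FPKM as deposited and to 6 and 4 when scaled to the sum of FPKM. The split over all tested genes moved too, from 1038 higher and 816 lower to 1181 and 721 and to 859 and 978. Leaving out DMSO replicate 1 or lenvatinib replicate 3 lowered the number higher to 6 in each case. It was also 6 without a filter on low values, and 4 in limma without trend and robust moderation. Over all genes, 673 to 827 rose when 1 library was left out. Without the filter 719 of 19715 rose, and without the moderation 743 of 9937. The changes were small, with a median log2 change of 0.05 against 0.01 for all tested genes, and a median size of 0.11 against 0.12. On this log2(scaled FPKM + 1) scale the change of genes with low FPKM is understated.

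**Figure D1:**
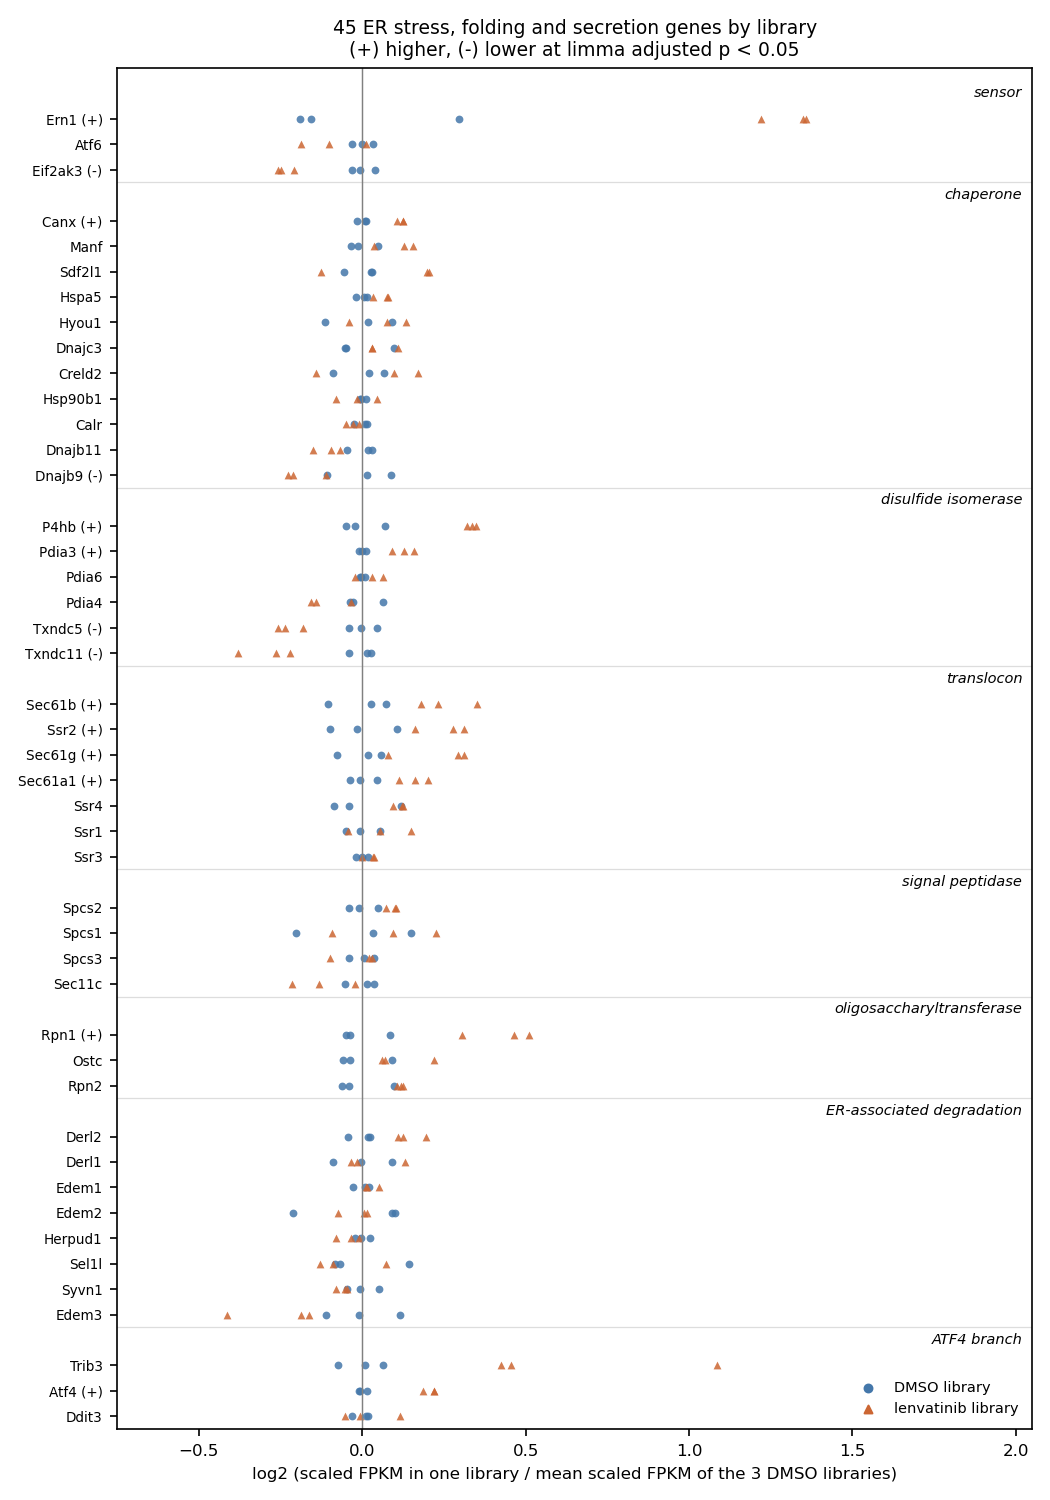
Each of the 45 genes in each of the 6 libraries, as log2 of its scaled FPKM over the mean of the 3 DMSO libraries on the x axis, by branch on the y axis; circles are DMSO and triangles lenvatinib libraries, (+) and (-) mark genes past a limma adjusted p of 0.05. The lenvatinib libraries of Ern1 stand farthest to the right, those of Eif2ak3, Txndc5 and Txndc11 lie to the left of the DMSO libraries, and those of the degradation genes mostly mingle with them.

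The 6 libraries held between 26635279 and 31655500 reads, so that counting error was small for most of these genes. The fewest reads behind any value of the 45 were 78, for Trib3 in DMSO replicate 1, and the fewest for Ern1 were 321. The median coefficient of variation within groups was 4.37 percent for the 45 genes and 7.57 percent for all tested genes. The libraries were of B cells by their markers, but these markers differed between groups together with those of other cells. Of the 12 B cell markers 12 fell, and their summed scaled FPKM ranged from 2971 to 3009 with DMSO and from 2470 to 2518 with lenvatinib. T cell markers rose in 8 of 11 tested cases, with sums of 49.5 to 54.3 and 148.7 to 156.0. Natural killer and innate lymphoid markers rose in 9 of 9, from sums of 33.1 to 39.9 up to 170.9 to 174.5. Colon epithelial markers rose in 6 of 6 tested of 12, from sums of 13.4 to 13.98 up to 55.9 to 59.6, and Slc26a3 was the epithelial marker at 0 in all DMSO libraries. Goblet cell markers, of a cell type with a large ER, rose in 3 of 5, from 9.90 to 11.4 up to 21.4 to 27.4. Of the markers counted above, Krt8, Krt19, Cdh1, Klrb1c and Zg16 were below a scaled FPKM of 1 in each DMSO library. They passed the filter on low values only through their lenvatinib libraries, so the direction of their calls was fixed in advance. Macrophage and dendritic cell markers rose in 2 of 9, from 63.3 to 66.1 up to 74.6 to 84.8. In such bulk samples fewer cells of a type and less RNA per cell cannot be told apart, and the part of these other cells in the differences given below was not tested.

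Plasma cell markers bear most directly on secretion genes, and they did not move one way. Of 10 tested markers 2 rose and 1 fell, and the summed level was 401.8 to 405.2 with DMSO and 379.6 to 393.7 with lenvatinib. Jchain, the joining chain of secreted antibody, rose from a mean of 45.9 to 62.9, whereas Irf4, a transcription factor of activated B and plasma cells, fell from 136.5 to 104.25. Irf4 and Mzb1, the most abundant of these markers, weighed most in the sum. Mzb1 had means of 126.15 with DMSO and 116.4 with lenvatinib and did not pass (limma adjusted p = 0.0516). Xbp1, the transcription factor that drives ER growth in plasma cells, stood at 51.1, 54.8 and 56.2 in the DMSO libraries and at 55.9, 56.6 and 58.4 in the lenvatinib libraries, and the groups overlapped. Its change of 0.08 (log2, SE 0.05) did not pass (limma adjusted p = 0.294). Gene-level FPKM does not separate spliced from unspliced Xbp1 mRNA. The plasma cell markers Sdc1 and Prdm1 were low, at means of 2.86 and 2.50 for Sdc1 and of 1.10 and 1.04 for Prdm1, with neither past the test.

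The stress sensors moved apart. Ern1, which encodes the sensor IRE1 alpha, was the member with the largest change of the 45, with scaled FPKM of 1.73, 1.69 and 2.37 in DMSO replicates 1 to 3 and of 4.49, 4.92 and 4.95 in lenvatinib replicates 1 to 3. Every lenvatinib library lay well above every DMSO library, and the ratio of the means was 2.48. This gave log2 change 0.99, SE 0.11, and limma adjusted p = 0.000367. Over the alternatives that tested it the log2 change lay between 0.93 and 1.31, past the threshold each time. A filter on mean scaled FPKM of at least 5 left Ern1 out, since its level was the lowest of the 45 but for Trib3.

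Eif2ak3, which encodes the sensor PERK, was far more abundant and fell. Its scaled FPKM was 107.2, 109.0 and 112.5 with DMSO and 91.6, 94.8 and 92.2 with lenvatinib, so that the groups did not overlap. The mean was 0.848 times that of the DMSO group (log2 change −0.24, SE 0.03, limma adjusted p = 0.00114), and it passed under each of the 15 alternatives. Atf6, the remaining sensor gene, stood at 12.3, 12.6 and 12.04 with DMSO and at 11.5, 10.8 and 12.4 with lenvatinib. These groups overlapped, and its log2 change of −0.08 had a 95 percent interval of −0.24 to 0.07 (limma adjusted p = 0.433). These values describe mRNA and not the activity of the sensor proteins.

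**Figure D2:**
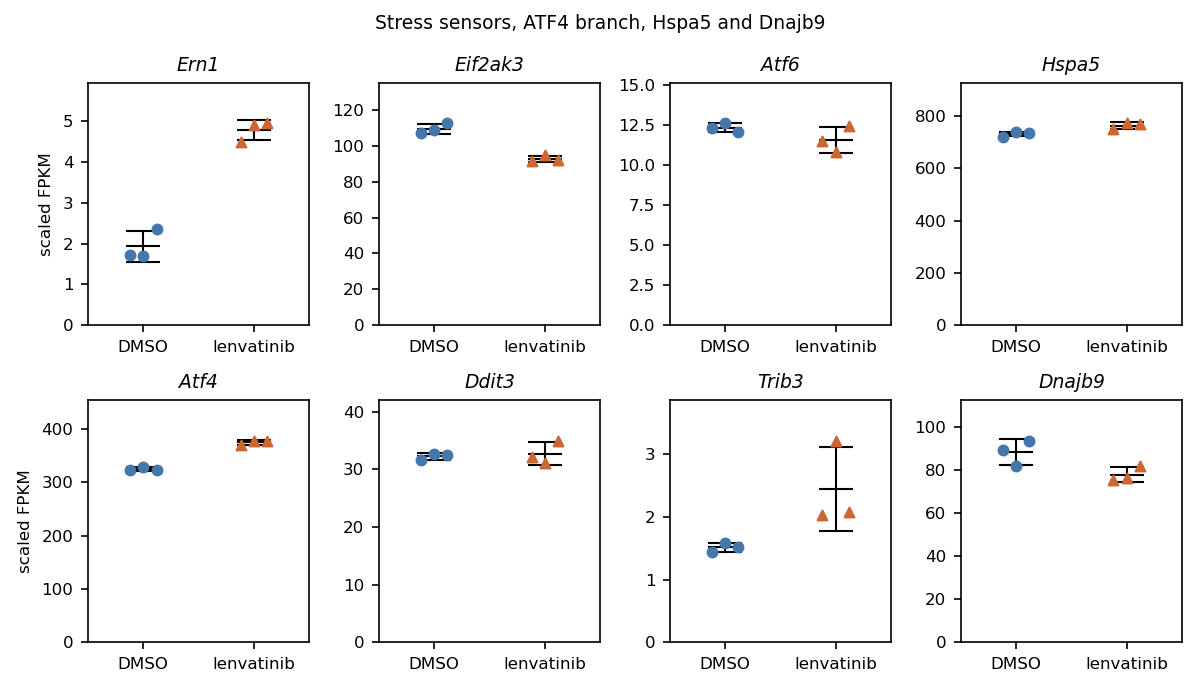
Scaled FPKM (y axis, from 0) of the 3 sensor genes, the 3 ATF4 branch genes, Hspa5 and Dnajb9 in DMSO and lenvatinib libraries; points are single libraries, and bars are the mean with 1 SD over 3 libraries. Ern1 is higher in each lenvatinib library (4.49 to 4.95 against 1.69 to 2.37) and Eif2ak3 lower (91.6 to 94.8 against 107.2 to 112.5), while Hspa5 differs by a ratio of 1.04.

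The chaperones were the most abundant branch and differed little. Their summed scaled FPKM was 2360, 2349 and 2383 in the DMSO libraries and 2365, 2401 and 2430 in the lenvatinib libraries, between 0.546 and 0.569 percent of all FPKM. Of 11 chaperone genes 1 rose and 1 fell, 9.09 percent each way, near the 10.4 and 8.21 percent of all tested genes. The median log2 change of the branch was 0.06. Hspa5 encodes BiP, the ER member of the Hsp70 family and the usual readout of the unfolded protein response, and at 721.7, 738.5 and 734.5 with DMSO it was the most abundant of the 45. With lenvatinib it stood at 748.9, 772.3 and 770.5, above each DMSO library, but the ratio of the means was only 1.04. Its log2 change of 0.06 (SE 0.02, 95 percent interval 0.01 to 0.12) did not pass (limma adjusted p = 0.106), although it did with FPKM as deposited (adjusted p = 0.0472) and in limma-voom on whole reads (adjusted p = 0.0301).

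The chaperone that rose was Canx, calnexin, a membrane lectin that holds glycoproteins while they fold. It stood at 126.4, 126.7 and 124.2 with DMSO and at 135.3, 136.9 and 137.1 with lenvatinib (log2 change 0.12, SE 0.03, limma adjusted p = 0.0170). The groups were apart, yet the call was lost without DMSO replicate 3 (adjusted p = 0.0555), without lenvatinib replicate 2 (0.0511), under sum-of-FPKM scaling (0.0550) and without trend and robust moderation (0.134). Its soluble relative calreticulin, Calr, stood at 571.3, 557.9 and 573.5 and at 548.1, 564.0 and 556.8, with overlapping groups and a 95 percent interval of −0.08 to 0.03 for the log2 change.

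The chaperone that fell was Dnajb9, a BiP cofactor that restrains IRE1. It stood at 89.3, 81.9 and 93.9 with DMSO and at 75.4, 76.3 and 81.9 with lenvatinib (log2 change −0.18, SE 0.05, limma adjusted p = 0.0478). The highest lenvatinib library nearly met the lowest DMSO library. The call was near the threshold and was lost without DMSO replicate 1 (adjusted p = 0.114), DMSO replicate 3 (0.136), lenvatinib replicate 1 (0.139) or lenvatinib replicate 2 (0.129). It was also lost with FPKM as deposited (0.0647), without a filter on low values (0.141) and without trend and robust moderation (0.135). Manf, an ER-resident factor released under stress, stood at 204.8, 201.8 and 213.7 and at 212.0, 226.1 and 230.4, with groups that overlapped at 1 library each. Its log2 change of 0.11 did not pass (limma adjusted p = 0.0799), but did without lenvatinib replicate 1 (adjusted p = 0.0347), with FPKM as deposited (0.0457) and with quantile normalization (0.0411).

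The other 6 chaperone genes did not pass, with limma adjusted p between 0.150 and 0.764. Hsp90b1, which encodes the ER form of Hsp90, had means of 485.2 ± 3.14 and 479.8 ± 20.4 (SD, n = 3). Of the BiP cofactors, Dnajb11 had means of 40.02 and 37.2, with each lenvatinib library below each DMSO library, while Dnajc3 had 23.6 and 24.6 and the exchange factor Hyou1 41.2 and 42.9. Sdf2l1, a partner of the BiP system, stood at 28.0 and 27.9 in lenvatinib replicates 1 and 2 but at 22.3 in replicate 3, below the DMSO range of 23.4 to 24.8. Creld2, a stress-induced ER protein, stood at 31.8, 33.5 and 27.0 with lenvatinib against 31.2, 30.2 and 27.9 with DMSO, again with lenvatinib replicate 3 lowest.

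Disulfide isomerases changed in both directions. These enzymes form and rearrange the disulfide bonds of proteins such as antibodies. Of 6 genes 2 rose and 2 fell, 33.3 percent each way against 10.4 and 8.21 percent of all tested genes. The log2 changes ran from −0.28 to 0.33 around a median of −0.04. P4hb, the classical protein disulfide isomerase, stood at 77.0, 78.4 and 83.5 with DMSO and at 99.5, 101.2 and 100.5 with lenvatinib. The gap between the groups was larger than the spread within either, the ratio of the means was 1.26 and the log2 change 0.33 (SE 0.04, limma adjusted p = 0.000353).

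Pdia3, the isomerase that works with calnexin and calreticulin, stood at 119.5, 120.1 and 121.3 with DMSO and at 134.2, 128.0 and 131.5 with lenvatinib. Its log2 change of 0.12 (SE 0.03, limma adjusted p = 0.0195) came with groups that did not overlap. The call was lost without DMSO replicate 1 or 2 (adjusted p = 0.0633 and 0.0550) and without lenvatinib replicate 1 or 3 (0.0721 and 0.0506), and also under sum-of-FPKM scaling (0.0699) and without trend and robust moderation (0.129).

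Txndc11, a membrane thioredoxin-domain protein, was lower in each lenvatinib library. It stood at 37.6, 37.9 and 36.2 with DMSO and at 31.9, 28.6 and 31.0 with lenvatinib (log2 change −0.28, SE 0.05, limma adjusted p = 0.00576). Txndc5, a soluble isomerase abundant in plasma cells, stood at 42.1, 39.7 and 40.7 and at 34.2, 36.0 and 34.6 (log2 change −0.22, SE 0.04, limma adjusted p = 0.00893). Both calls held under each of the 15 alternatives, as did that of P4hb. Pdia4 had means of 57.8 ± 2.29 and 53.6 ± 2.54 and Pdia6 of 117.6 ± 0.638 and 119.5 ± 3.66, and neither passed (limma adjusted p = 0.153 and 0.677).

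Translocon genes were the branch with the most calls in one direction. Of 7 genes 4 rose and 0 fell in limma, 57.1 and 0 percent against 10.4 and 8.21 percent of all tested genes. Of the 7, 0 fell at an unadjusted p of 0.05 or in limma-voom. Their summed scaled FPKM was 367.3, 392.2 and 380.5 with DMSO and 416.8, 421.2 and 437.4 with lenvatinib, a ratio of means of 1.12, and the median log2 change was 0.16. The 3 Sec61 channel genes of the branch were among the 4. Sec61b, the beta subunit, stood at 65.6, 74.2 and 72.0 and at 80.0, 82.9 and 90.1 (log2 change 0.25, SE 0.06, limma adjusted p = 0.0148).

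Sec61a1, the pore-forming subunit, stood at 49.98, 48.9 and 51.9 with DMSO and at 57.8, 54.4 and 56.3 with lenvatinib (log2 change 0.16, SE 0.04, limma adjusted p = 0.0313). Sec61g, the gamma subunit, stood at 55.7, 57.3 and 52.2 and at 58.2, 67.4 and 68.2, with lenvatinib replicate 1 just above the DMSO range (log2 change 0.22, SE 0.06, limma adjusted p = 0.0393). Ssr2, a subunit of the translocon-associated TRAP complex, stood at 37.9, 40.1 and 43.7 and at 49.3, 45.4 and 50.4 (log2 change 0.25, SE 0.06, limma adjusted p = 0.0219). In each of these genes the groups were apart, by a margin that was small for Sec61g and Ssr2.

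The number of translocon genes that passed was 0 without a filter on low values, where adjustment runs over more genes, and 0 in limma without trend and robust moderation, and 2 when scaled to the sum of FPKM. It was 1 without DMSO replicate 1 or without lenvatinib replicate 3, and 2 without DMSO replicate 2 or without lenvatinib replicate 1. Over all genes, 719 of 19715 rose without the filter, 743 of 9937 without the moderation and 859 of 9935 under sum-of-FPKM scaling. With 1 library left out, 673 to 827 of all genes rose. Sec61b kept its call in each of the 6 fits that left out 1 library. Sec61a1 lost it without DMSO replicate 1 or 2 (adjusted p = 0.0835 and 0.0983) and without lenvatinib replicate 1 or 3 (0.102 and 0.0730). Ssr2 lost it without the same libraries (adjusted p = 0.0707, 0.0603, 0.0682 and 0.0680). Sec61g lost it without DMSO replicate 1, 2 or 3 (adjusted p = 0.0806, 0.0538 and 0.122) and without lenvatinib replicate 2 or 3 (0.126 and 0.115), and also under sum-of-FPKM scaling (0.0510) and in limma-voom (0.0504). Sec61a1 was lost under sum-of-FPKM scaling (0.0849) and with quantile normalization (0.0584). The other 3 TRAP subunits did not pass, with means of 18.4 and 19.1 for Ssr1, 67.3 and 68.4 for Ssr3, and 77.8 and 84.2 for Ssr4. DMSO replicate 2 set Ssr4 apart from the other 2 DMSO libraries, at 84.4 against 73.3 and 75.7, and without it the gene passed (adjusted p = 0.0213).

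Signal peptidase genes showed no call. This complex removes the signal peptide of proteins that enter the ER. Of 4 genes 0 rose and 0 fell in limma, against 10.4 and 8.21 percent of all tested genes, and 4 are too few to tell 0 from such shares. Of these 0 rose and 1 fell at an unadjusted p of 0.05, and 0 passed in limma-voom. Sec11c, a catalytic subunit, stood at 69.1, 68.1 and 64.9 with DMSO and at 61.5, 66.3 and 58.0 with lenvatinib, with overlapping groups (log2 change −0.12, 95 percent interval −0.24 to −0.0036, limma adjusted p = 0.144). Spcs2 stood at 36.2, 35.5 and 37.7 and at 39.1, 39.0 and 38.3, with each lenvatinib library higher, but its log2 change of 0.09 did not pass (limma adjusted p = 0.189).

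Spcs1, an accessory subunit, stood at 55.01, 59.7 and 46.8 with DMSO and at 57.4, 50.5 and 62.98 with lenvatinib, with wide and overlapping groups (limma adjusted p = 0.615). Spcs3, another subunit, stood at 33.3, 34.04 and 32.3 and at 33.7, 31.1 and 33.9, also overlapping (limma adjusted p = 0.869). The summed level of the 4 genes was 190.9 ± 8.15 with DMSO and 190.6 ± 3.30 with lenvatinib (SD, n = 3).

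Of the 3 oligosaccharyltransferase genes, whose products attach sugar chains to proteins in the ER, 1 rose and 0 fell, with 0 lower also at an unadjusted p of 0.05 and in limma-voom. Over all tested genes the limma shares were 10.4 and 8.21 percent. Rpn1, ribophorin I, stood at 23.9, 26.1 and 23.7 with DMSO and at 35.0, 30.3 and 33.9 with lenvatinib. The groups were well apart, the ratio of the means was 1.345, and the log2 change of 0.41 (SE 0.06, limma adjusted p = 0.00214) was the largest of the 45 after those of Ern1 and Trib3. Rpn2, ribophorin II of the same complex, stood at 24.5, 27.0 and 24.2 and at 27.4, 27.5 and 27.1, a log2 change of 0.11 that did not pass (limma adjusted p = 0.183). Ostc, a small subunit, stood at 41.2, 45.1 and 40.6 and at 44.4, 44.1 and 49.3, with overlapping groups (limma adjusted p = 0.213).

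Genes of ER-associated degradation, which returns misfolded proteins to the cytosol for the proteasome, showed no call in limma. Of 8 genes 0 rose and 0 fell, against 10.4 and 8.21 percent of all tested genes, and 8 are too few to tell 0 from such shares. Of these 0 rose and 1 fell at an unadjusted p of 0.05, and in limma-voom 0 rose and 1, Edem3, fell. Their summed level was 346.9 ± 6.11 with DMSO and 340.4 ± 6.99 with lenvatinib (SD, n = 3), and the median log2 change was −0.03. Edem3, a mannosidase that marks misfolded glycoproteins, stood at 15.4, 14.3 and 16.8 with DMSO and at 11.6, 13.8 and 13.6 with lenvatinib. Each lenvatinib library was lower (log2 change −0.24, SE 0.08, limma adjusted p = 0.0814, and 0.00146 in limma-voom).

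Derl2, a channel-forming derlin, stood at 11.5, 11.01 and 11.5 with DMSO and at 12.4, 12.2 and 12.98 with lenvatinib, each higher, without passing (log2 change 0.13, limma adjusted p = 0.165). Herpud1, a stress-induced organiser of the complex and the most abundant gene of the branch, stood at 166.2, 163.2 and 161.1 and at 154.5, 162.3 and 159.7, with overlapping groups (log2 change −0.04, limma adjusted p = 0.375). Syvn1, the ubiquitin ligase HRD1, stood at 43.8, 40.9 and 42.1 and at 39.95, 40.7 and 40.9. The highest lenvatinib library all but met the lowest DMSO library, with a 95 percent interval of −0.15 to 0.04 for the log2 change. Its partner Sel1l had means of 14.2 and 13.8, Edem1 of 39.2 and 39.9, Edem2 of 10.7 and 10.6 and Derl1 of 50.2 and 51.2, none of which passed.

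In the ATF4 branch the transcription factor gene itself rose, and its stress targets among the 45 did not pass. Atf4 stood at 323.3, 328.2 and 322.5 with DMSO and at 369.6, 377.7 and 378.0 with lenvatinib, a ratio of means of 1.16 (log2 change 0.21, SE 0.02, limma adjusted p = 0.000444). The groups were far apart relative to their spread, and the call held under each of the 15 alternatives. Ddit3, which encodes CHOP, the transcription factor linked to death under lasting stress, stood at 31.6, 32.7 and 32.6 and at 32.1, 31.1 and 35.0. The groups overlapped, and the 95 percent interval of its log2 change of 0.02 ran from −0.10 to 0.14 (limma adjusted p = 0.854).

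Trib3, a pseudokinase induced through ATF4 and CHOP, was among the least expressed of the 45. It stood at 1.44, 1.58 and 1.53 with DMSO and at 2.03, 3.22 and 2.08 with lenvatinib. Each lenvatinib library was higher, with replicate 2 far above the other 2, and the log2 change of 0.44 (SE 0.14, 95 percent interval 0.11 to 0.76) did not pass (limma adjusted p = 0.0651, and between 0.0599 and 0.175 over the alternatives).

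**Figure D3:**
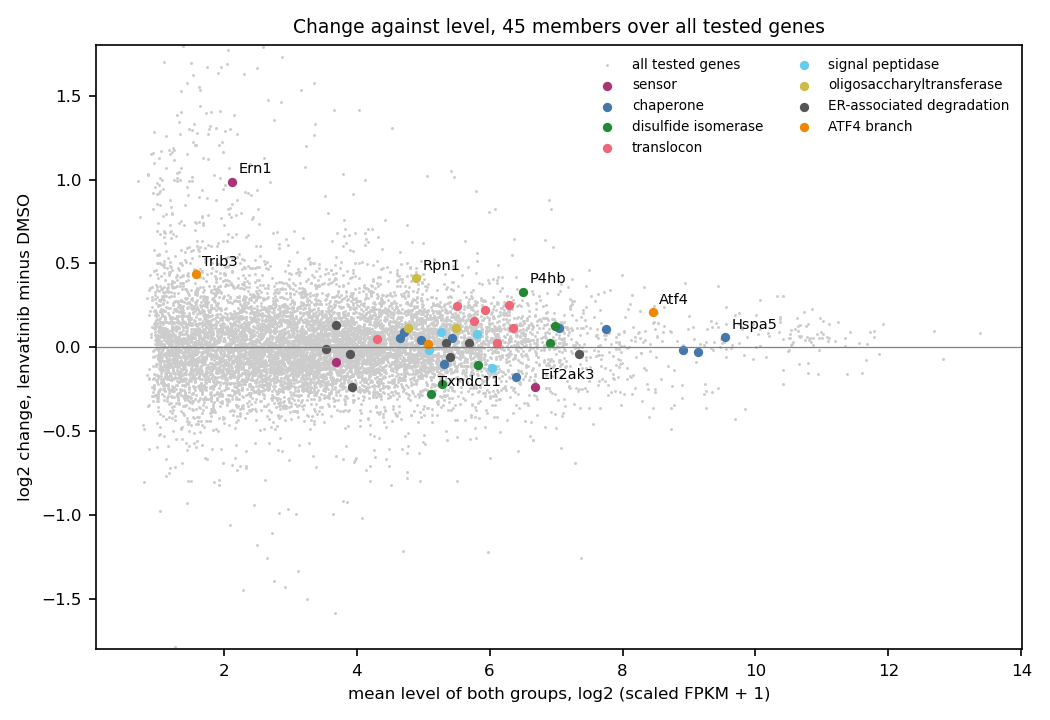
Log2 change, lenvatinib minus DMSO (y axis), against the mean level of both groups as log2(scaled FPKM + 1) (x axis), for all tested genes in grey and the 45 genes coloured by branch; 32 tested genes lie beyond the y axis limits of 1.8. Most of the 45 lie at middle to high levels and near 0, with Ern1 (0.99) the only one of them beyond 0.5.

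Other genes of the same pathway were followed in 7 lists, 129 genes found in the table and 120 tested. Of these 19 rose and 4 fell, 15.8 and 3.33 percent against 10.4 and 8.21 percent of all tested genes, with a median log2 change of 0.05. Scaled to the sum of FPKM, 15 rose and 7 fell, where 859 and 978 of all 9935 tested genes did. The number of pathway genes that rose was 11 without lenvatinib replicate 1 and 12 without lenvatinib replicate 2. Over all genes, 673 to 827 rose when 1 library was left out. Of the tested genes 3, Asns, Chac1 and Sec24d, had DMSO means below 1, so that they passed the filter through their lenvatinib libraries. Without these 3, a count made after the data were seen, 18 of 117 rose and 4 fell.

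Among other targets of ATF4, 6 of 14 tested genes rose and 0 fell in limma, with 11 and 0 at an unadjusted p of 0.05 and 9 and 0 in limma-voom. Chac1 and Asns are among the 14 and could be tested only through the group where they are high, and without them the counts were 5 and 0 of 12, with 9 and 0 unadjusted and 7 and 0 in limma-voom. Over all tested genes the limma shares were 10.4 percent higher and 8.21 percent lower. Slc7a5, an amino acid transporter, stood at 25.4, 25.3 and 28.0 with DMSO and at 34.55, 35.7 and 37.4 with lenvatinib (log2 change 0.44, SE 0.06, limma adjusted p = 0.000655). Mthfd2 and Phgdh, enzymes of one-carbon metabolism and serine synthesis, rose from 16.4 ± 0.254 to 22.3 ± 1.29 (limma adjusted p = 0.00103) and from 25.7 ± 0.765 to 32.9 ± 1.31 (limma adjusted p = 0.00135). For these 3 genes the groups did not overlap. The lenvatinib libraries lay wholly above in 7 of the 12 genes, where the share over all tested genes was 18.9 percent. Shmt2 and Cebpg, named after their values were seen, also rose, while Ddit4, Atf3 and Slc3a2, likewise, had lower means with lenvatinib and did not pass. These genes changed in libraries whose T cell and natural killer markers were higher, and the part of those cells was not tested.

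Of 16 tested genes among the other regulators of the unfolded protein response, 0 rose and 1 fell in limma, with 0 and 4 at an unadjusted p of 0.05 and 0 and 3 in limma-voom. The limma shares were 0 and 6.25 percent, against 10.4 and 8.21 percent of all tested genes. The one that fell was Eif2ak2, which encodes the kinase PKR, from 11.3 ± 0.156 to 6.87 ± 0.240 (log2 change −0.65, SE 0.07, limma adjusted p = 0.000164). PKR shares its substrate with PERK and is a known interferon-induced gene. Mbtps2, a protease that cuts ATF6, had means of 3.71 and 2.77 (limma adjusted p = 0.0720), and Ppp1r15a, the stress-induced phosphatase subunit GADD34, of 256.5 and 239.25 (limma adjusted p = 0.0813). Both passed as lower in limma-voom (adjusted p = 0.0243 and 0.00860), and Ppp1r15a did under sum-of-FPKM scaling (0.0422).

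In the list of other translocation genes 3 of 15 rose and 0 fell, with 0 lower in limma-voom and 1 at an unadjusted p of 0.05. The limma shares were 20 and 0 percent, against 10.4 and 8.21 percent of all tested genes. Sec62, which works with Sec61, rose from 53.1 ± 2.07 to 64.6 ± 1.85 (log2 change 0.28, limma adjusted p = 0.00198). Srp14 and Srp9, which form a dimer in the signal recognition particle, rose from 66.1 ± 2.86 to 78.8 ± 5.49 and from 43.9 ± 4.28 to 51.6 ± 1.19 (limma adjusted p = 0.0129 and 0.0376). The call of Srp9 was lost without DMSO replicate 1 or 3 (adjusted p = 0.0853 and 0.0905) and without lenvatinib replicate 1, 2 or 3 (0.109, 0.0957 and 0.0637), and with quantile normalization (0.0630). Srp14 and Srp9 lost theirs without a filter on low values (adjusted p = 0.0558 and 0.120) and without trend and robust moderation (0.0597 and 0.101). Among 11 other glycosylation genes 1 rose and 0 fell, with 1 lower at an unadjusted p of 0.05 and in limma-voom. The limma share higher, 9.09 percent, was near the 10.4 percent of all tested genes, of which 8.21 percent were lower. The gene that rose was Ddost, a subunit of the same complex as Rpn1, from 33.0 ± 0.778 to 38.5 ± 1.76 (log2 change 0.21, limma adjusted p = 0.0145). Ost4 and Stt3b, further subunits, had means of 85.8 and 95.5 and of 118.0 and 109.5, and did not pass (limma adjusted p = 0.0541 and 0.0807), but Ost4 did as higher without DMSO replicate 1 (adjusted p = 0.0105), with a mean filter of 5 (0.0414) and with FPKM as deposited (0.0346). Stt3b did as lower in limma-voom (adjusted p = 0.00768) and under sum-of-FPKM scaling (0.0388).

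Of 19 other ER folding genes 4 rose and 1 fell, 21.1 and 5.26 percent against 10.4 and 8.21 percent of all tested genes. Mogs, the glucosidase that starts trimming of sugar chains, rose from 14.2 ± 1.18 to 18.5 ± 0.265 (limma adjusted p = 0.00573), and Tmx1, a membrane thioredoxin, from 25.6 ± 1.61 to 30.5 ± 1.30 (limma adjusted p = 0.0190). Ero1b, an oxidase that recharges the isomerases, fell from 90.0 ± 0.485 to 80.9 ± 3.12 (limma adjusted p = 0.0199). The call of Tmx1 was lost without DMSO replicate 2 (adjusted p = 0.0571), lenvatinib replicate 1 (0.0669) or lenvatinib replicate 3 (0.0535), and that of Ero1b without DMSO replicate 1 (0.0581), lenvatinib replicate 1 (0.0688) or lenvatinib replicate 2 (0.0539). Tmx1 and Ero1b were also lost without a filter on low values (0.0607 and 0.0527) and without trend and robust moderation (0.0528 and 0.0964).

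Of 18 other degradation genes 3 rose and 0 fell, with 0 lower in limma-voom and 1 at an unadjusted p of 0.05. The limma shares were 16.7 and 0 percent, against 10.4 and 8.21 percent of all tested genes. Ubqln1, a shuttle to the proteasome, rose from 76.3 ± 0.994 to 86.4 ± 1.29 and Vcp, the ATPase that extracts proteins from the ER membrane, from 61.6 ± 1.76 to 69.5 ± 0.809 (limma adjusted p = 0.00506 and 0.0114). The call of Vcp was lost without trend and robust moderation (adjusted p = 0.0626). Man1b1, a mannosidase, rose from 19.1 ± 1.40 to 22.2 ± 0.0742 (limma adjusted p = 0.0462), a call lost without DMSO replicate 1 or 3 (adjusted p = 0.131 and 0.0755) and without lenvatinib replicate 1, 2 or 3 (0.109, 0.103 and 0.0984). It was also lost without a filter on low values (0.108), under sum-of-FPKM scaling (0.0846), with quantile normalization (0.0607) and without trend and robust moderation (0.0828).

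Of 27 genes of transport from the ER to the Golgi 2 rose and 2 fell, 7.41 percent each way, near the 10.4 and 8.21 percent of all tested genes. Sec24a, a cargo-selecting coat subunit of COPII vesicles, stood at 25.0, 24.5 and 25.8 with DMSO and at 19.9, 18.9 and 19.6 with lenvatinib (log2 change −0.35, SE 0.05, limma adjusted p = 0.00128). Tmed10 and Tmed2, which form a cargo receptor of the p24 family, moved apart, Tmed10 from 44.98 ± 1.25 down to 38.0 ± 0.717 and Tmed2 from 49.2 ± 0.775 up to 56.4 ± 1.15 (limma adjusted p = 0.00425 and 0.00720).

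**Figure D4:**
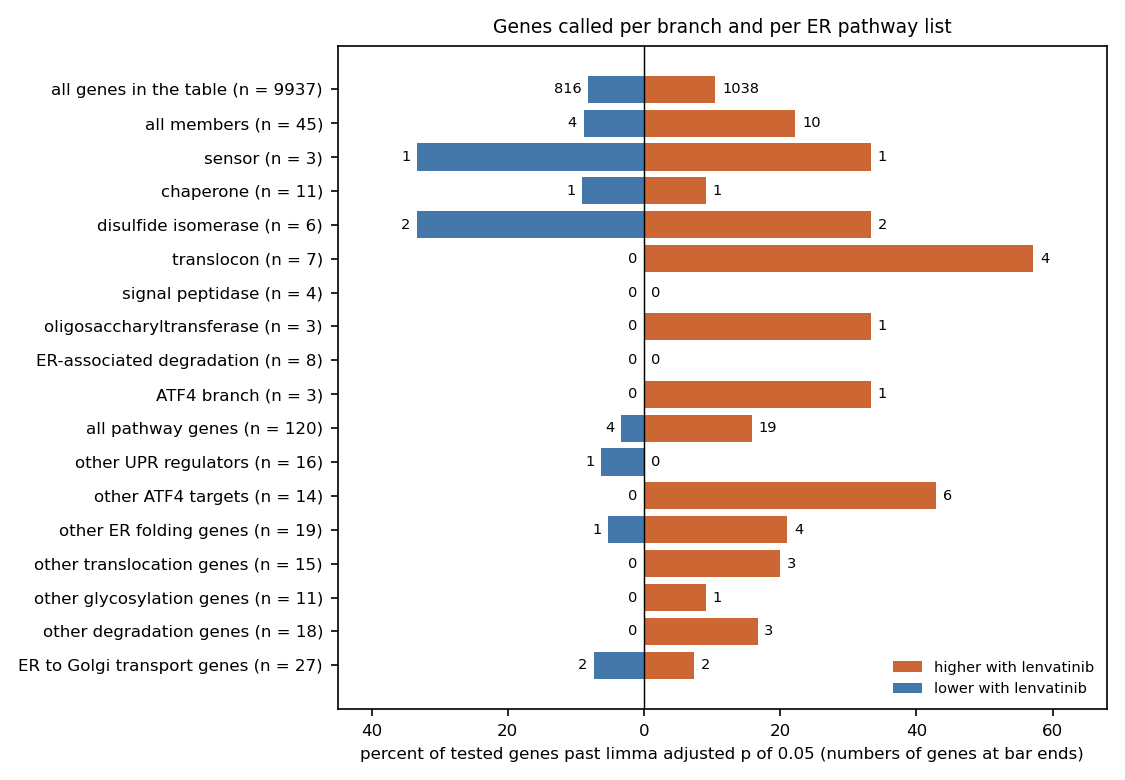
Share of tested genes past a limma adjusted p of 0.05 (x axis, percent; higher with lenvatinib to the right, lower to the left), for all genes, the 45 genes, their 8 branches and the 7 lists of other pathway genes; numbers at the bar ends are counts of genes. The translocon (4 of 7) and other ATF4 targets (6 of 14, Chac1 with a DMSO mean below 1 among them) have their calls on the right, while the disulfide isomerases have 2 on each side.

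Set against the promoter motifs, 1 of the 8 genes with an ERSE passed, Canx, and 7 did not, with a median log2 change of 0.03. Over all tested genes 10.4 percent rose and 8.21 percent fell, so 1 of 8 higher was near the share of all genes. Of the 28 matched genes without an ERSE, 7 rose and 4 fell, with a median of 0.07. Of the 3 genes with a UPRE core, Txndc5 and Txndc11 fell and Hspa5 did not pass. Of the 3 with an ATF4 element, Txndc5 fell while Trib3 and Herpud1 did not pass. These are descriptions of letters in 300-base windows and of few genes.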

How the data were processed

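The submitters' processing notes name HTSeq and mouse build GRCm39. Aligner, annotation, versions and strand use are not given in the sources used here. Values that the authors deposited are FPKM of 20591 genes, 1 column per library. Columns left unused numbered 0. Libraries were scaled by median-of-ratios factors (0.992 to 1.01). A gene was tested if its scaled FPKM reached 1 in 3 or more libraries, which 9937 genes did. Values log2(scaled FPKM + 1) were compared by treatment, with no other term, using limma 3.58.1 (R 4.3.3) with trend and robust moderation. Tests were two-sided with Benjamini-Hochberg adjustment over the tested genes. Values after ± are SDs over n = 3.

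FPKM steps gave whole reads for 19714 of 19715 genes with any value, to a tolerance of 1e-05, and so each library's total. Limma-voom was run on these reads. On simulated data, totals were recovered in 6 of 6 libraries. Of 200 genes changed among 9937, limma found 22 percent at a simulated log2 change of 0.2 and 61 percent at 0.3.

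Members, branches and lists were chosen with earlier results of these data known. By rule, the text gives library values for the sensors, Hspa5, the ATF4 branch and, in each branch, up to 4 members with the smallest p. It names Xbp1 and up to 3 genes with the smallest p per pathway list. Any further gene was picked after its values were seen. The lists of other pathway genes held 130 symbols, and Camlg was not matched. Alternatives were another pseudocount, 2 other filters, 3 other scalings, limma without trend and robust moderation, the replicate block, limma-voom and leaving out each library. Promoter sequences are RefSeq's for GRCm38.p6, another build than the authors'.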

Additional observations from a re-analysis of the deposited data

How the results depend on the processing

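Of the 14 members that passed, 7 did so under every alternative that tested them, namely Ern1, P4hb, Rpn1, Atf4, Eif2ak3, Txndc5 and Txndc11. The alternatives numbered 15, of which the mean filter of 5 did not test Ern1. The causes of the changes below were not tested. Over all tested genes 1038 rose and 816 fell in the fit described above. These counts were 719 and 545 without a filter on low values, and 887 and 815 with a mean filter of 5. They were 1181 and 721 with FPKM as deposited, 859 and 978 scaled to the sum of FPKM, and 919 and 932 with quantile normalization. Without trend and robust moderation they were 743 and 647. Without a filter on low values, where 19715 genes were tested, 6 members and 10 pathway genes rose, with 0 translocon genes higher and 0 chaperones lower. With a mean filter of 5, which left out Ern1 and Trib3, 0 sensors rose, and the median log2 change was −0.16 for sensors and 0.11 for the ATF4 branch. With FPKM as deposited 3 chaperones rose and 0 fell, the median of the members was 0.069, and Hsp90b1 (0.00084), Spcs3 (0.0022) and Edem2 (0.0064) changed sign. Scaled to the sum of FPKM, 6 members, 0 chaperones, 1 disulfide isomerase and 2 translocon genes rose and 7 pathway genes fell. Medians were then 0.026 for members, 0.030 for chaperones, −0.070 for disulfide isomerases and 0.18 for the ATF4 branch, and Pdia6 (−0.0042), Ssr3 (−0.0035), Edem1 (−0.0016) and Ddit3 (−0.0084) changed sign. With quantile normalization 2 chaperones rose, the medians of members and of chaperones were 0.031 each, and Hsp90b1 (0.040), Calr (0.027) and Derl1 (−0.00053) changed sign. Without trend and robust moderation 4 members, 11 pathway genes, 0 chaperones, 1 disulfide isomerase and 0 translocon genes rose, and 0 chaperones fell. In limma-voom 2 chaperones rose, and 1 degradation member, 7 pathway genes and 1282 of all genes fell.

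Leaving out 1 library at a time gave 6 to 8 members higher, 11 to 16 pathway genes higher and 673 to 827 of all genes higher, with 0 to 2 chaperones, 1 to 2 disulfide isomerases and 1 to 3 translocon genes higher and 0 to 1 chaperones lower. For all genes 563 to 632 fell. Medians ran from 0.027 to 0.067 for members, 0.021 to 0.061 for chaperones, −0.072 to −0.020 for disulfide isomerases, −0.13 to −0.041 for sensors, −0.026 to 0.055 for signal peptidase and −0.062 to 0.026 for degradation genes. The log2 changes of 8 uncalled members crossed 0 in these fits and ran from −0.098 to 0.025 for Sel1l, −0.10 to 0.037 for Edem2, −0.037 to 0.024 for Spcs3, −0.021 to 0.13 for Creld2, −0.016 to 0.16 for Spcs1, −0.023 to 0.072 for Derl1, −0.047 to 0.014 for Hsp90b1 and −0.029 to 0.053 for Ddit3.

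Libraries of the same replicate number did not deviate together (r = −0.0067, 0.0065 and −0.0053 across genes), and not every library correlated best with its own number. With the replicate block 9 members rose and 4 fell. The calls of Sec61g (adjusted p = 0.0571) and Man1b1 (0.0705) were lost with it. A log2 change of 0.2 was found in 22 percent of simulated cases, where 200 of 9937 genes were changed. In the data 1854 genes passed, which makes the adjusted threshold less strict, and the members varied less within groups than all tested genes. The 22 percent is therefore not a rate for the members, although members with changes of this size or smaller may have been missed.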

Other observations

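Some ER genes of secretory epithelium and some plasma cell genes were also looked at. Those shown were picked after their values were seen, and Agr2 and Tent5c also belonged to the marker lists. Ern2, the IRE1 form of mucous epithelial cells, was at 0 in the 3 DMSO libraries and at 0, 0.0661 and 0.0579 scaled FPKM in lenvatinib replicates 1, 2 and 3. Agr2, a disulfide isomerase relative needed for mucin folding, stood at 2.49, 1.02 and 1.14 and at 3.39, 2.17 and 2.38, with overlapping groups. Ell2, an elongation factor used in antibody secretion by plasma cells, was lower in each lenvatinib library, with means of 61.4 ± 1.67 and 52.1 ± 1.52. Tent5c, which stabilises secretory mRNAs in plasma cells, was higher in each, with means of 12.6 ± 0.905 and 18.3 ± 1.12. Hspa13, Sec61a2 and Eaf2, looked at with them, did not pass (limma adjusted p = 0.723, 0.679 and 0.901). Creb3l1 and Creb3l4 were too low to be tested.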
